A study of Mus musculus with 9 samples.

Results

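In luminal cells of the mouse mammary gland, 36 genes had reads in every control library and were silent, or nearly so, in all 3 libraries labelled LATS1/2-KO. The rule that chose them asked for at least 30 raw counts in each control library and at most 3 in each library labelled LATS1/2-KO, in a table of 55450 genes. The control condition was met by 14157 genes, so the 36 made up 0.254% of them. Both the control and the LATS1/2-KO values were used by this rule and are given below as a description. The libraries labelled LATS1/2-Sox9-KO had no part in it, and they are where the persistence of the silence could be read.

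All mice were adult and nulliparous and carried lsl-EYFP, a reporter silent until Cre acts, with K8CreERT2, a tamoxifen-activated Cre under the keratin 8 promoter of luminal cells. Control mice carried lsl-EYFP;K8CreERT2 alone, LATS1/2-KO mice carried LATS1/2f/f in addition, and LATS1/2-Sox9-KO mice carried both LATS1/2f/f and Sox9f/f. Each mouse, controls included, was given 2 mg of tamoxifen on each of 5 days, and live EYFP+ cells were sorted 7 days after the last dose, with 3 libraries per genotype. The sort used a live dye and EYFP and no antibody against other cell types, and the sources used here do not say how many mice entered a library. The deposited counts summed to 47003587, 46719296 and 44167762 in control replicates 1 to 3, to 50508666, 61745346 and 57331239 in LATS1/2-KO-labelled libraries, and to 61967651, 55503365 and 59696754 in those labelled LATS1/2-Sox9-KO. Both deletion groups were therefore sequenced more deeply than the controls, in which the genes had their counts.

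The floxed genes gave a mixed check of the labels. Lats1 had 5672, 5929 and 5940 normalised counts (counts scaled to the mean effective library size) in control, 2090, 1923 and 2336 in LATS1/2-KO-labelled libraries, and 2058, 1844 and 1709 in those labelled LATS1/2-Sox9-KO. Lats2 did not fall, with 1039, 865 and 1220 normalised counts in control against 1256, 1434 and 1723 and then 1957, 1580 and 1240 in the deletion groups. Sox9 was at 23313, 19948 and 21534 in control, 7205, 9506 and 12433 in LATS1/2-KO-labelled libraries, and 8812, 6756 and 6460 in those labelled LATS1/2-Sox9-KO, so its counts in both deletion groups lay below every control and those of the deletion groups overlapped. Counts per gene sum all exons and do not show whether the floxed ones were lost. The deletion groups are called by their labels throughout.

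LATS1 and LATS2 are the kinases of the Hippo pathway that hold the coactivators YAP and TAZ in check, and SOX9 is a transcription factor of luminal progenitors. Luminal cells line the ducts and fall into hormone-sensing cells, which carry oestrogen and progesterone receptors, and hormone-receptor-negative cells that include progenitors and give rise to milk-secreting cells. Genes that luminal cells use at high level, such as keratins and hormone receptors, are the usual markers of this identity. Some of the coding genes described here, such as Reg3g, Amtn, Ctsj and Gpr179, are known from other tissues.

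The control libraries carried the markers of luminal cells: 12 general luminal genes summed to 1056300, 1025690 and 1129510 normalised counts, led by the keratin gene Krt18, and 12 basal markers to 5675, 6932 and 5959. No gene of 4 lists of luminal markers was among the 36. The lists held 15 hormone-sensing, 12 progenitor, 15 milk and secretory and 12 general luminal genes. None of the hormone-sensing, progenitor or general luminal genes was at 3 counts or fewer in every library labelled LATS1/2-KO. Pgr, the progesterone receptor, averaged 22685 ± 6622 normalised counts (SD, n = 3) in control and still 379 ± 269 (SD, n = 3) in LATS1/2-KO-labelled libraries. The 36 genes were silent from a lower start. Their mean normalised counts in control ran from 42.8 to 738 with a median of 131, and the median over the 14157 genes was 1324. Per kilobase of exon, 35 of the 36 lay below the median of those genes, and their median rank was the 14.1 percentile, with Amtn at the 57.0 percentile as the exception. A gene at a low level needs a smaller fold change to reach 3 counts, so the rule itself favours such genes.

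By annotated class, 23 of the 36 genes were protein coding (63.9%, against 86.2% of the genes with at least 30 control counts), 10 were long non-coding or unclassified transcripts (27.8% against 5.92%) and 3 were pseudogenes (8.33% against 7.87%). The 3 pseudogenes were Skiv2l-ps1 (unprocessed), Gm5575 (processed) and LOC102637012 (unitary). The first and second of these classes are copies of other genes, to which some of their reads could belong.

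In LATS1/2-Sox9-KO-labelled libraries, 20 of the 36 genes again had at most 3 counts in every library. The same condition was met by 74 of the 14157 genes, or 0.523%, with the 20 among them. Of the 20, 14 had no read in any of the 3 libraries, a state shared by 0.212% of the 14157 genes, and 6 had between 1 and 3 counts in at least 1 library. The other 16 genes had more than 3 counts in some library: 11 in a single library, 2 in a pair of libraries and 3 in all 3 (Tacr3, F630040K05Rik and Gm5575). The genes were not all absent together, then, but no gene came back to its control level. With the rule applied without control replicate 1, 32 of 52 genes had at most 3 counts in every LATS1/2-Sox9-KO-labelled library (61.5%), and without LATS1/2-KO replicate 1, 40 of 71 (56.3%), beside 20 of 36 (55.6%). The mean count in LATS1/2-Sox9-KO-labelled libraries was a median of 0.653% of the control mean, and the highest value was 22.7%, for F630040K05Rik.

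Summed over the 36 genes, the raw counts were 5093, 5960 and 5180 in control, 23, 11 and 17 in LATS1/2-KO-labelled libraries and 88, 56 and 107 in those labelled LATS1/2-Sox9-KO. Every one of the last 3 sums was above every sum of LATS1/2-KO-labelled libraries and at least an order of magnitude below the lowest control. The sums of LATS1/2-KO-labelled libraries are held down by the rule, which caps each gene at 3 counts there. Genes with 0 counts numbered 26, 28 and 27 in LATS1/2-KO-labelled libraries and 23, 24 and 22 in those labelled LATS1/2-Sox9-KO, and 12 genes had 0 counts in all 6 deletion libraries. These were bulk libraries, so fewer cells of a type and less RNA per cell cannot be told apart for any of these values.

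**Figure D1:**
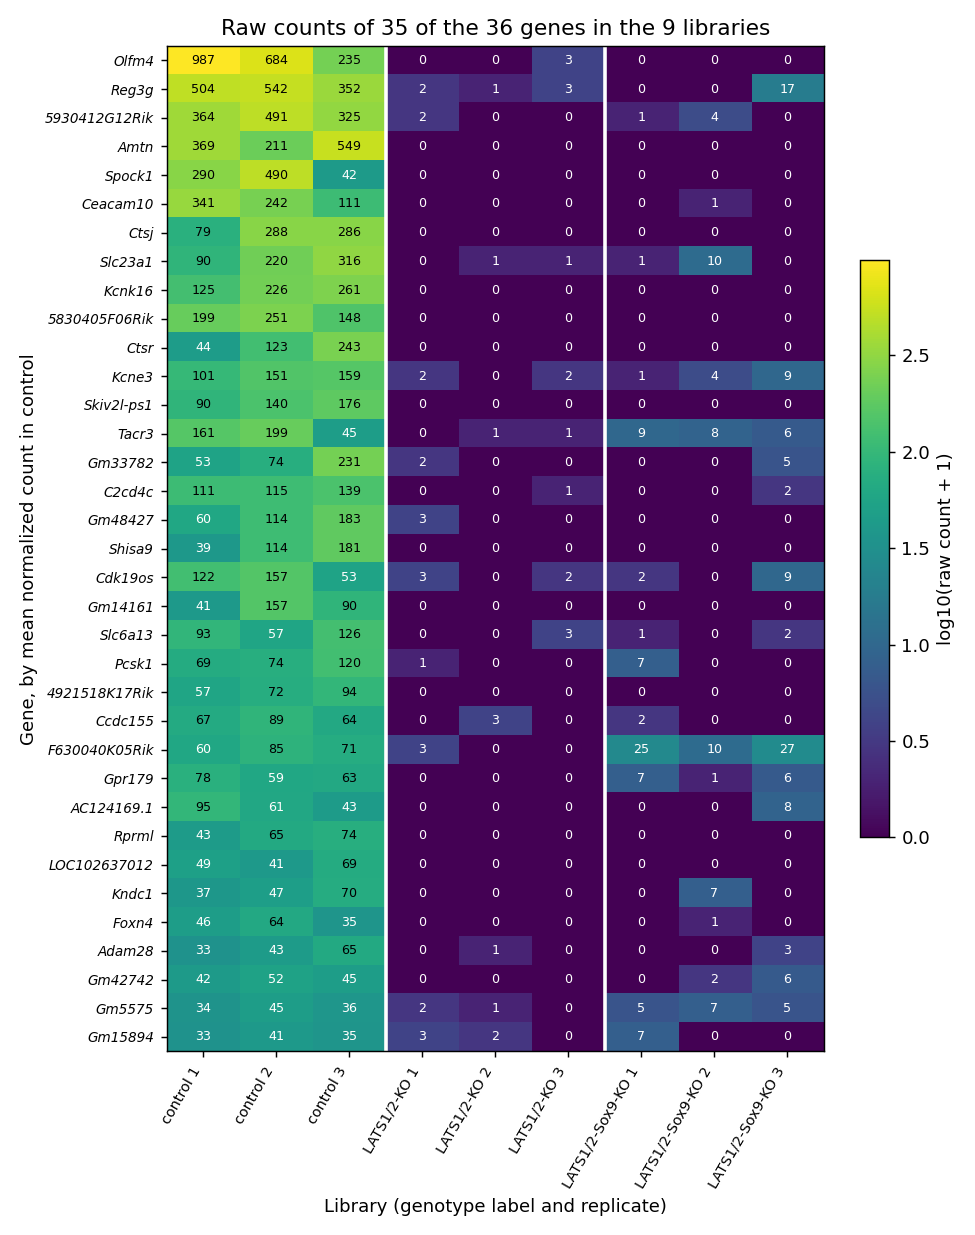
Raw counts of 35 of the 36 genes (vertical, ordered by mean normalised count in control) in the 9 libraries (horizontal, grouped by genotype label), printed in each cell and coloured on a log10(raw count + 1) scale. The 3 control columns are filled throughout, the LATS1/2-KO columns hold 3 counts at most by the rule, and the LATS1/2-Sox9-KO columns hold scattered counts, the highest being 27 for F630040K05Rik in replicate 3.

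**Figure D2:**
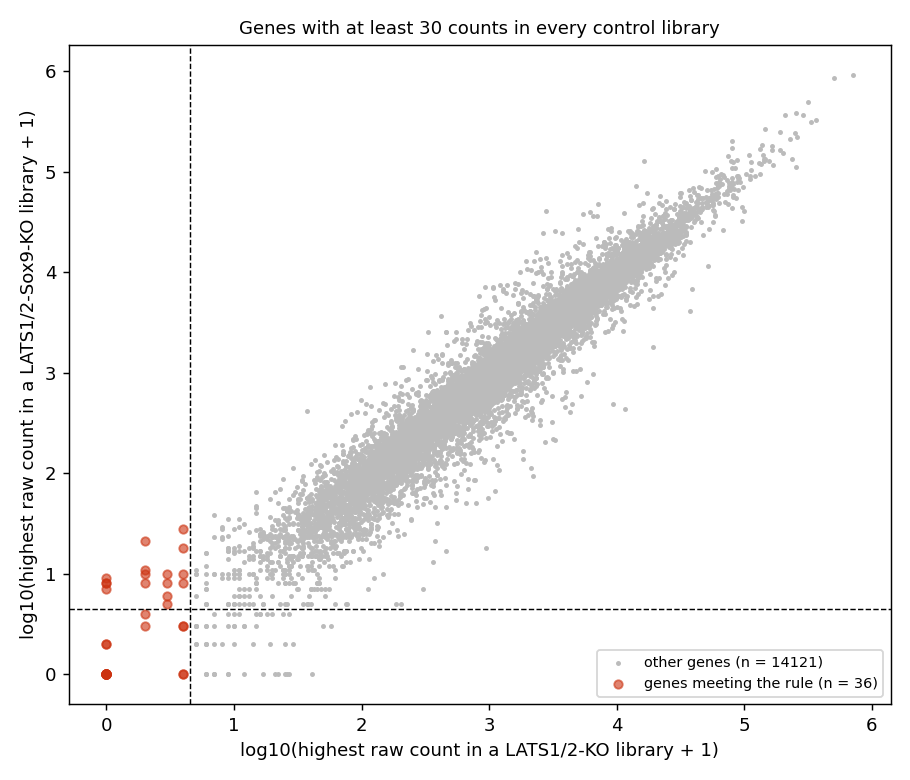
Highest raw count in a LATS1/2-KO library (horizontal) against the highest in a LATS1/2-Sox9-KO library (vertical), both as log10(count + 1), for the 14157 genes with at least 30 counts in every control library; dashed lines separate 3 counts from 4. The 36 genes (red, overlapping where counts are equal) lie left of the vertical line by the rule, and 20 of them also lie below the horizontal line.

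Genes of secreted, matrix and surface proteins are given first. Olfm4 (ENSMUSG00000022026, chr14:79984081-80023139 of GRCm38) encodes olfactomedin 4, a secreted glycoprotein used as a marker of intestinal stem cells. It had 987, 684 and 235 raw counts in control, 0, 0 and 3 in LATS1/2-KO-labelled libraries and 0 in each of those labelled LATS1/2-Sox9-KO. The control libraries spread over 3.91-fold after normalisation, and the deletion libraries lay far below the lowest of them. Set against a floor of 3 counts per library, the smallest count taken as different from 0, Olfm4 was at least 260-fold lower in LATS1/2-Sox9-KO-labelled libraries. Such floors cover counting error only.

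Reg3g (ENSMUSG00000030017, chr6:78466269-78468872) encodes a secreted lectin that kills Gram-positive bacteria in the gut. Its raw counts were 504, 542 and 352 in control, 2, 1 and 3 in LATS1/2-KO-labelled libraries, and 0, 0 and 17 in those labelled LATS1/2-Sox9-KO. A single library therefore held all the reads of that group, and it still lay well below every control. The ratio of control to LATS1/2-Sox9-KO was 103, with a 95% counting interval from 63.9 to 177, and the log2 change was -6.66 (standard error 0.93, adjusted p = 0.000177, edgeR).

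Amtn (ENSMUSG00000029282, chr5:88376108-88385916) encodes amelotin, a protein of the enamel matrix, and belongs to the secretory calcium-binding phosphoprotein cluster that also holds the caseins. Control libraries had 369, 211 and 549 counts and all 6 deletion libraries had 0, which placed the gene at least 159-fold lower in LATS1/2-Sox9-KO-labelled libraries. Of the 15 genes listed for that cluster, 14 were in the table and 6 could be tested. In LATS1/2-KO-labelled libraries, 1 was lower (Amtn itself) and 1 higher (Odaph), and in those labelled LATS1/2-Sox9-KO 4 were lower, Amtn again among them, and none higher at the thresholds given below. Over all genes tested, 17.5% were lower and 17.1% higher in the first comparison and 19.6% and 17.8% in the second. Amtn itself was chosen through its control and LATS1/2-KO counts. Csn3, the kappa-casein gene and the nearest tested gene on one side of Amtn at 443443 bases, kept 6979 ± 2126 normalised counts (SD, n = 3) in LATS1/2-Sox9-KO-labelled libraries from 37816 ± 8911 (SD, n = 3) in control. Gm43431, nearest on the other side at 37299 bases, was called higher in LATS1/2-Sox9-KO-labelled libraries than in control. It averaged 0 normalised counts in control, 20.1 in LATS1/2-KO-labelled libraries and 7.46 in those labelled LATS1/2-Sox9-KO.

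Spock1 (chr13:57421195-57908332), which encodes the extracellular proteoglycan testican, had 290, 490 and 42 control counts and 0 in all 6 deletion libraries. Control 3 was 10.6-fold below control 2 after normalisation, the widest spread of the 36 genes. Its relative Spock2 went the other way, from 227 ± 43.0 (SD, n = 3) to 2049 ± 968 (SD, n = 3) and 1297 ± 523 (SD, n = 3) normalised counts, and was called higher in both deletion groups. Ceacam10 (chr7:24777206-24784657), of a family of immunoglobulin-domain surface and secreted proteins, had 341, 242 and 111 counts in control, 0 in each library labelled LATS1/2-KO and 0, 1 and 0 in those labelled LATS1/2-Sox9-KO. Adam28, a membrane metalloprotease gene, had 33, 43 and 65 control counts, then 0, 1 and 0, then 0, 0 and 3.

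A pair of placental cathepsin genes was silent together. Ctsj and Ctsr encode cysteine proteases known from the rodent placenta and lie in 1 cluster on chromosome 13 (chr13:61000179-61005959 and chr13:61159204-61164256, both on the minus strand). Ctsj had 79, 288 and 286 counts in control and Ctsr had 44, 123 and 243, and both had 0 in all 6 deletion libraries. Both were lowest in control 1. Against the floor they were at least 91.0-fold and 57.9-fold lower in LATS1/2-Sox9-KO-labelled libraries. These bounds use the control means, and the control libraries spread over 3.88-fold for Ctsj and 5.93-fold for Ctsr after normalisation. The bound for Ctsr leans on control 3, with 302 normalised counts beside 51.0 and 139 in controls 1 and 2, and would be lower without it. Of the 10 genes of the cathepsin L type examined after these were seen, Cts7, Cts8, Ctsll3 and Ctsm had 0 counts in all 9 libraries. Cts3, Cts6 and Ctsq had 0 in every control and a few reads in deletion libraries. Ctsq had 5, 0 and 8 in LATS1/2-KO-labelled libraries and 0, 0 and 1 in those labelled LATS1/2-Sox9-KO. Ctsl, the widely used lysosomal member, stood at 15301 ± 607 (SD, n = 3) normalised counts in control and 22910 ± 3012 (SD, n = 3) in LATS1/2-Sox9-KO-labelled libraries.

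The stretches just before the start of these genes are shown because the 2 genes were silenced side by side, and those of Amtn and Reg3g because they belong to the best-counted genes. They are taken from RefSeq on GRCm38.p6, from 250 bases before the start to the first base that GENCODE places in an exon. In the cathepsin pair, capitals mark runs of at least 10 bases that occur exactly in both.
Ctsj, chr13:61005960-61006175, minus strand: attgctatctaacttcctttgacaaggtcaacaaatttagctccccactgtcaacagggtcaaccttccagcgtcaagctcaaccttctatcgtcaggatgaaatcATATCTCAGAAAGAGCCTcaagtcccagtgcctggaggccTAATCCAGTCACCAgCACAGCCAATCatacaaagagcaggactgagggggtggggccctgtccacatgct
Ctsr, chr13:61164257-61164438, minus strand: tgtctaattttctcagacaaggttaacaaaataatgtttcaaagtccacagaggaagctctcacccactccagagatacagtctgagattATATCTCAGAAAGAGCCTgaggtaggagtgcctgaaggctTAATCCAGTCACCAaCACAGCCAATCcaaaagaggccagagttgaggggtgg
The shared runs covered 43 bases of each. Aligned without gaps at the best of the shifts within 60 bases, 95 of 182 bases were identical (52.2%), so this is the highest of the identities tried.

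In the next sequences, capitals mark a match to one of the motifs searched, which was ACAATG (SOX) in Amtn and TATAAA or its reverse complement (TATA box) in Reg3g.
Amtn, chr5:88375858-88376107, plus strand: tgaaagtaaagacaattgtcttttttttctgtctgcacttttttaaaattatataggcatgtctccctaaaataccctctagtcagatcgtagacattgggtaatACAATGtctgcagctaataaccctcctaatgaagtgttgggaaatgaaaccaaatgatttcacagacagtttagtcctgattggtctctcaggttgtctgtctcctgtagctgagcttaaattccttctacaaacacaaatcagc
Reg3g, chr6:78468875-78469124, minus strand: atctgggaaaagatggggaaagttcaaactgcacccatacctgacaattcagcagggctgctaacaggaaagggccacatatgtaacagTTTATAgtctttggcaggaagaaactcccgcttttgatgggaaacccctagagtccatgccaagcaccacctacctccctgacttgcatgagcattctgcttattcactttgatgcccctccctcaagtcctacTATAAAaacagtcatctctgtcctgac
RefSeq promoters of 300 bases (250 before the start and 50 after) were found for 22 of the 36 genes, 27 in all, and each motif was searched on both strands. ACAATG was in 6 of the 27 (22.2%, from 4 genes) against 12.6% of all 32851 promoters, TATAAA in 14.8% against 13.6%, and AGGAAGT (ETS) in 11.1% against 9.35%. The forkhead motifs TGTTTGC and TGTTTAC were in 7.41% against 5.07% and 3.70% against 3.65%. CATTCC (TEAD) was in 7.41% against 14.7%, the GATA factor motif AGATAA in 3.70% against 11.2%, and TTCNNNGAA (STAT) in 3.70% against 8.30%. The palindromic oestrogen response element was in none of the 27 and in 0.0700% of all. Promoters of 1 gene overlap one another, and with 27 promoters a single match is worth 3.70%.

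Channels and transporters came next. Kcnk16 (chr14:20261376-20269199), a background potassium channel known from the pancreas, had 125, 226 and 261 counts in control and 0 in all 6 deletion libraries, at least 85.4-fold lower in LATS1/2-Sox9-KO-labelled libraries. The nearest tested gene on one side, Kcnk5, a channel of the same family 79567 bases away, had 7458 ± 2358 (SD, n = 3) normalised counts in control and 3045 ± 860 (SD, n = 3) in LATS1/2-Sox9-KO-labelled libraries. Nudt13, nearest on the other side at 25498 bases, was like Kcnk5 called lower, with log2 changes of -1.09 and -1.29 respectively (edgeR). Kcne3 (chr7:100176502-100184869), the accessory subunit that keeps KCNQ1 channels open in secretory epithelia, had 101, 151 and 159 counts in control, 2, 0 and 2 in LATS1/2-KO-labelled libraries and 1, 4 and 9 in those labelled LATS1/2-Sox9-KO. The 2 deletion groups overlapped, and both were below every control. The log2 change against control was -5.17 (standard error 0.70, adjusted p = 0.000142, edgeR).

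Slc23a1 (chr18:35614604-35627244) encodes a sodium-dependent transporter of vitamin C. Its counts were 90, 220 and 316 in control, 0, 1 and 1 in LATS1/2-KO-labelled libraries and 1, 10 and 0 in those labelled LATS1/2-Sox9-KO. Slc23a2, which encodes the other transporter of vitamin C, stayed at 900 ± 39.5 (SD, n = 3) and 961 ± 201 (SD, n = 3) normalised counts in the deletion groups from 2268 ± 191 (SD, n = 3) in control. Slc6a13, a transporter gene for GABA, had 93, 57 and 126 counts in control, then 0, 0 and 3, then 1, 0 and 2. Shisa9, which encodes an auxiliary subunit of AMPA receptors, had 39, 114 and 181 in control and 0 in all 6 deletion libraries.

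Among receptors, Tacr3 and Gpr179 had reads in all 3 LATS1/2-Sox9-KO-labelled libraries. Tacr3 (chr3:134829007-134934579) encodes the receptor of neurokinin B. Its raw counts were 161, 199 and 45 in control, 0, 1 and 1 in LATS1/2-KO-labelled libraries and 9, 8 and 6 in those labelled LATS1/2-Sox9-KO, so all 3 of the last libraries lay above all 3 labelled LATS1/2-KO and below all controls. The control level was 21.97-fold that of LATS1/2-Sox9-KO-labelled libraries (95% counting interval 14.4 to 35.1, log2 fold change -4.41, standard error 0.61, adjusted p = 0.000171, edgeR). Tac2, the gene of its ligand, had 0 counts in all 9 libraries, and Tac1, the gene of substance P, had 730 ± 196 normalised counts (SD, n = 3) in control and 138 ± 70.4 (SD, n = 3) in LATS1/2-Sox9-KO-labelled libraries. Gpr179 (chr11:97332109-97352077), an orphan receptor needed in bipolar cells of the retina, had 78, 59 and 63 counts in control, 0 in each library labelled LATS1/2-KO and 7, 1 and 6 in those labelled LATS1/2-Sox9-KO.

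The smaller coding groups held few counts. Pcsk1, which encodes a protease that activates prohormones, had 69, 74 and 120 counts in control, 1, 0 and 0 in LATS1/2-KO-labelled libraries and 7, 0 and 0 in those labelled LATS1/2-Sox9-KO. Foxn4, a forkhead transcription factor gene of the retina and spinal cord, had 46, 64 and 35, then 0 throughout, then 0, 1 and 0. Rprml, a relative of the cell cycle gene Rprm, had 43, 65 and 74 and 0 in all 6 deletion libraries. The reads of Pcsk1 and Foxn4 in LATS1/2-Sox9-KO-labelled libraries each came from a single library.

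Kndc1, a gene of a guanine nucleotide exchange factor of Ras from neurons, had 37, 47 and 70 counts in control, 0 in LATS1/2-KO-labelled libraries and 0, 7 and 0 in those labelled LATS1/2-Sox9-KO. Ccdc155, whose product KASH5 links meiotic chromosomes to the cytoskeleton, had 67, 89 and 64, then 0, 3 and 0, then 2, 0 and 0. C2cd4c, of a small family with a C2 domain, had 111, 115 and 139, then 0, 0 and 1, then 0, 0 and 2. All 3 members of that family that could be tested (C2cd4b, C2cd4c and C2cd4d) were called lower in both deletion groups, beside 17.5% and 19.6% of all genes tested, and C2cd4c was lower in LATS1/2-KO-labelled libraries by the rule that chose it. C2cd4b fell from 3900 ± 692 (SD, n = 3) to 233 ± 73.4 (SD, n = 3) and 80.2 ± 12.7 (SD, n = 3) normalised counts and was not silent.

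The sorted cells were also read for markers of other cell types. Of all genes tested, 17.5% were lower and 17.1% higher in LATS1/2-KO-labelled libraries than in control. In those labelled LATS1/2-Sox9-KO the shares were 19.6% and 17.8%. Of the 10 listed Schwann and neuronal markers, 9 were tested, and 3 were lower and 1 higher in LATS1/2-KO-labelled libraries, and 4 lower and 2 higher in those labelled LATS1/2-Sox9-KO. Their summed normalised counts were 9562, 9052 and 5777 in control, 8152, 8920 and 9480 in LATS1/2-KO-labelled libraries, and 10333, 12279 and 10767 in those labelled LATS1/2-Sox9-KO. Mbp was the most abundant gene of this list and Elavl4 had 0 counts in all 9 libraries. The list held 1 of the 36 genes, which was called lower in both deletion groups. That gene was chosen through its control and LATS1/2-KO counts.

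Pcsk1 stands in the list of neuroendocrine markers, whose sums were 3268, 10026 and 18294 normalised counts in control, 884, 180 and 358 in LATS1/2-KO-labelled libraries and 372, 82.7 and 103 in those labelled LATS1/2-Sox9-KO. Tph1, of serotonin synthesis, made up most of the control sums, with 3158, 9916 and 18119 normalised counts, while Chga and Neurod1, also on the list, had 0 counts in all 9 libraries. Of 5 tested genes of that list, 2 were lower and 2 higher in LATS1/2-KO-labelled libraries and 3 lower and 2 higher in those labelled LATS1/2-Sox9-KO. Over all genes tested, 17.5% were lower and 17.1% higher in the first comparison and 19.6% and 17.8% in the second. Pcsk1, among those called lower in both, was chosen through its control and LATS1/2-KO counts. The 2 called higher in both comparisons were Insm1, a transcription factor of neuroendocrine cells, and Chgb, a protein of secretory granules. Insm1 had 0 counts in every control, 138, 60 and 163 in LATS1/2-KO-labelled libraries and 65, 22 and 41 in those labelled LATS1/2-Sox9-KO. Chgb had 0, 1 and 0, then 7, 5 and 11, then 18, 3 and 12. The part of such cells in the values of Pcsk1 was not tested.

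Markers of 2 further cell types had lower sums in every deletion library than in any control. The 10 endothelial markers summed to 6112, 5058 and 6082 normalised counts in control, 1351, 897 and 972 in LATS1/2-KO-labelled libraries and 546, 1045 and 1121 in those labelled LATS1/2-Sox9-KO, most of it Vwf in control. Of the 10, 1 was called lower (Vwf) and 1 higher (Kdr) in the first comparison. In the second, 2 were called lower (Vwf and Tek) and 1 higher (Kdr). Kdr averaged 25.3, 136 and 261 normalised counts in the 3 groups, so the fall of the sums was not shared by the whole list. The 7 erythroid markers summed to 142, 145 and 122 in control, 87.3, 5.08 and 18.2 in LATS1/2-KO-labelled libraries and 6.50, 0 and 0.911 in those labelled LATS1/2-Sox9-KO. Alas2 led that list. The globin gene Hba-a1 had 29, 18 and 6 raw counts in control, 74, 4 and 8 in LATS1/2-KO-labelled libraries and 2, 0 and 0 in those labelled LATS1/2-Sox9-KO, while Hba-a2 and Hbb-bt had 0 in all 9. Of 2 tested erythroid genes, 1 was lower in the first comparison and both in the second. All genes tested were lower in 17.5% and higher in 17.1% of cases in the first comparison and in 19.6% and 17.8% in the second. The sums of the 12 basal markers were higher in every deletion library than in any control, at 5675, 6932 and 5959 in control, 271362, 164165 and 158348 in LATS1/2-KO-labelled libraries, and 160210, 282638 and 387701 in those labelled LATS1/2-Sox9-KO. Most of each deletion library's sum was Krt14, a keratin gene of basal cells, with 909, 501 and 606 normalised counts in control, 252969, 140251 and 139506 in LATS1/2-KO-labelled libraries and 117088, 239974 and 349679 in those labelled LATS1/2-Sox9-KO. The list did not move one way, since 4 of the 12 were lower and 5 higher in the first comparison and 5 lower and 4 higher in the second. Trp63, a transcription factor of basal cells, was called lower in both, with means of 1553, 54.9 and 85.3 in the 3 groups, as were the smooth muscle genes Myh11, Mylk and Lmod1. Other smooth muscle genes of the list were called higher in LATS1/2-KO-labelled libraries, namely Acta2 (means of 876, 11572 and 4587 in the 3 groups), Cnn1 (183, 479 and 113) and Tagln (730, 2096 and 1044), and Acta2 was called higher in those labelled LATS1/2-Sox9-KO too. The part of these cell types in the loss of the 36 genes was not tested.

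Lists for immune and stromal cells were counted in the same way. The counts stand beside 17.5% of all genes tested called lower and 17.1% higher in the first comparison. In the second these shares were 19.6% and 17.8%. None of 10 tested macrophage and dendritic markers was lower, and 4 and then 6 were higher, with sums of 1163, 781 and 773 normalised counts in control and between 2295 and 5581 in the deletion libraries. Of 10 fibroblast markers 1 was lower and 5 higher and then 2 lower and 4 higher, and of 10 adipocyte markers 1 was lower and 7 higher and then 1 lower and 4 higher. The adipocyte sums were 15534, 15771 and 14417 in control, 7628, 21910 and 18799 in LATS1/2-KO-labelled libraries and 11441, 13108 and 11507 in those labelled LATS1/2-Sox9-KO, the last 3 below every control. Most of each sum was Pnpla2, which was called in neither comparison. Lipe was the gene called lower in both, and Adipoq, Cidec, Lep and Cfd were called higher in both. Cfd had 0 raw counts in every control, then 0, 3651 and 1952, then 1, 864 and 395. The 5 tested skeletal muscle markers gave 3 higher calls in each comparison and none lower. Few markers of lymphocytes, granulocytes or salivary gland could be tested: 2 of T and NK cells (none called), 3 of B cells (1 lower in each comparison), 1 of granulocytes (higher in the second) and 2 of salivary gland (none called). The B-cell and plasma-cell sums were 63.8, 108 and 78.4 in control, 92.3, 28.8 and 27.4 in LATS1/2-KO-labelled libraries and 51.1, 41.9 and 48.3 in those labelled LATS1/2-Sox9-KO, the last 3 again below every control, and the part of these cells in the loss of the 36 genes was not tested. Of 9 steroid and nuclear hormone receptors, 5 were lower and 3 higher and then 6 lower and 2 higher, and none of them was among the 36.

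Genes without an established name made up the rest, and those named from here on were in part singled out after their values were seen. F630040K05Rik (chr17:45734506-45788594), a long non-coding RNA, had more reads than any other of the 36 in LATS1/2-Sox9-KO-labelled libraries. Its counts were 60, 85 and 71 in control, 3, 0 and 0 in LATS1/2-KO-labelled libraries and 25, 10 and 27 in those labelled LATS1/2-Sox9-KO, with no overlap among the 3 groups. Control was 4.35-fold higher than LATS1/2-Sox9-KO (95% counting interval 3.26 to 5.86, log2 fold change -2.13, standard error 0.65, adjusted p = 0.0176, edgeR). Without control replicate 2 or LATS1/2-Sox9-KO replicate 2, the adjusted p of that difference was 0.0585 and 0.0717.

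Gm5575, a processed pseudogene, had 34, 45 and 36 counts in control, 2, 1 and 0 in LATS1/2-KO-labelled libraries and 5, 7 and 5 in those labelled LATS1/2-Sox9-KO. Skiv2l-ps1, another pseudogene, had 90, 140 and 176 in control and 0 in all 6 deletion libraries, and the transcript 5830405F06Rik had 199, 251 and 148 and likewise 0. On the same strand, 5830405F06Rik shares 292 and 295 of its 2347 exon bases with the T-cell receptor variable genes Trbv5 and Trbv4. Trbv3, 7055 bases away, averaged 29.8 normalised counts in control and 0 in both deletion groups. The part of T cells in the counts of 5830405F06Rik was not tested. AC124169.1 had 95, 61 and 43, then 0 throughout, then 0, 0 and 8. Cdk19os, transcribed antisense to Cdk19 and sharing 268 exon bases with it, had 122, 157 and 53, then 3, 0 and 2, then 2, 0 and 9. The methods of the study mention same-strand counting, but the kit they name does not mark strand in its standard form, so how reads were divided between antisense pairs is uncertain. Gm42742 shares 2918 of its 4508 exon bases with Prrt2 on the same strand, and its counts of 42, 52 and 45, then 0 throughout, then 0, 2 and 6 are uncertain for that reason. The best counted of the non-coding transcripts was 5930412G12Rik, with 364, 491 and 325 counts in control, 2, 0 and 0 in LATS1/2-KO-labelled libraries and 1, 4 and 0 in those labelled LATS1/2-Sox9-KO. Gm48427 and Gm33782 overlap on the same strand of chromosome 10 without sharing an exon base. Gm48427 had 60, 114 and 183, then 3, 0 and 0, then 0 throughout, and Gm33782 had 53, 74 and 231, then 2, 0 and 0, then 0, 0 and 5. Both were lowest in control 1 and highest in control 3. Gm14161 had 41, 157 and 90 and 0 in all 6 deletion libraries, and Gm15894 had 33, 41 and 35, then 3, 2 and 0, then 7, 0 and 0.

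In edgeR's quasi-likelihood test over the 19357 genes that passed the filter on low counts, all 36 genes were called lower in LATS1/2-KO-labelled libraries than in control, with a fold change beyond 1 on the log2 scale in size and a Benjamini-Hochberg adjusted p no higher than 0.05. This contrast was the one the rule used, and 17.5% of all genes tested were called lower in it. Against the same controls, all 36 were also called lower in LATS1/2-Sox9-KO-labelled libraries, where 19.6% of all genes were, with a median log2 fold change of -6.92 beside 0.01 over all genes tested. The 36 genes passed the filter through their control counts, which the rule required, so the count describes them and supports nothing further. Every library labelled LATS1/2-Sox9-KO was below every control library for the 36 genes and for 33.8% of all genes tested.

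Between the deletion groups, 2 of the 36 genes were called higher in LATS1/2-Sox9-KO-labelled libraries, beside 1.55% of all genes tested, and none was called lower, beside 2.16%. They were F630040K05Rik (log2 fold change 4.20, standard error 0.89, adjusted p = 0.0258, edgeR) and Gpr179 (5.16, standard error 1.19, adjusted p = 0.0455, edgeR). The rule held the LATS1/2-KO values near 0, so this comparison could hardly go down and its 2 calls are a description. Tacr3 was next, with a log2 change of 3.33 (standard error 0.88, adjusted p = 0.0529, edgeR). For 5 of the 36 genes every library labelled LATS1/2-Sox9-KO was above every library labelled LATS1/2-KO, beside 14.6% of all genes tested. The 2 calls were lost in some fits with a library left out. None of the 36 was called higher without LATS1/2-KO replicate 2 or 3, or without any 1 of LATS1/2-Sox9-KO-labelled libraries. Without control replicate 1 or 2 or LATS1/2-KO replicate 1, 1 was. Both genes had reads in all 3 LATS1/2-Sox9-KO-labelled libraries, so the lost calls do not show that either came from a single library.

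The control libraries were themselves uneven for these genes. The highest control library exceeded the lowest by a median of 2.04-fold after normalisation (range 1.21 to 10.6), whereas the median over the 14157 genes was 1.25-fold. More than 2-fold separated the controls for 19 of the 36 genes and for 9.57% of the 14157. Control 1 was the lowest library for 21 of the 36 genes and control 3 the highest for 18, although Olfm4, Ceacam10, Tacr3 and Spock1 were lowest in control 3.

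**Figure D3:**
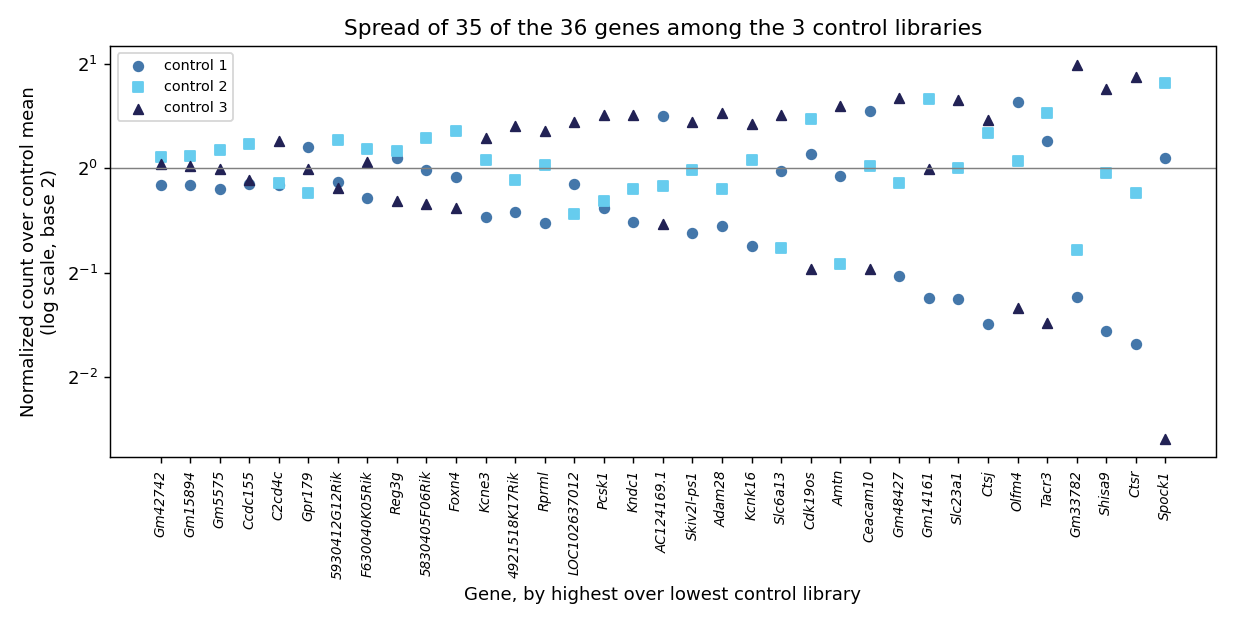
Normalised count in each of the 3 control libraries divided by the mean of the 3 (vertical, log scale of base 2) for 35 of the 36 genes (horizontal, ordered by the ratio of highest to lowest control library). The ratio grows from 1.21 for Gm42742 on the left to 10.6 for Spock1 on the right, where control 3 lies far below the others.

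The hormone-sensing markers summed to 348573, 312150 and 480692 normalised counts in the 3 controls and were highest in control 3, whereas the milk and secretory markers summed to 212619, 238941 and 100703 and were lowest there. Of the 15 hormone-sensing genes, 13 were called lower in LATS1/2-KO-labelled libraries and 13 in those labelled LATS1/2-Sox9-KO, where 1 (Ly6a) was higher. Of 12 tested milk and secretory genes, 6 were lower and 1 higher (Plin2) in the first comparison and 10 lower and 1 higher in the second. Of 12 progenitor genes, 5 were lower and 1 higher (Lcn2) and then 9 lower and none higher, and of 12 general luminal genes 2 were lower and 1 higher and then 2 lower and 3 higher. All genes tested were lower in 17.5% and higher in 17.1% of cases in the first comparison and in 19.6% and 17.8% in the second.

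Near the limits of the rule, the lowest control minimum inside was 33 (Gm15894 and Adam28), followed by 34 (Gm5575), and just outside lay Gm19345 and Gm13373 at 29 and Grin1, a subunit gene of NMDA receptors, at 27. At the other limit, 8 of the 36 genes reached 3 counts in a library labelled LATS1/2-KO, the best counted being Olfm4, Reg3g and Gm48427. With a maximum of 4, the best-counted genes outside were AC090881.2, Kcnj11 and Lalba. Kcnj11, the pore subunit of the ATP-sensitive potassium channel, had 1115, 1356 and 467 counts in control, 4, 0 and 0 in LATS1/2-KO-labelled libraries and 2, 2 and 0 in those labelled LATS1/2-Sox9-KO. Lalba, the milk protein alpha-lactalbumin, had 384, 745 and 85, then 2, 0 and 4, then 2, 0 and 0. A limit of 6 counts in place of 3 would have added 38 genes.

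The nearest tested genes on each side of the 36 were examined after the genes were known. There were 68 of them, not counting the 36 themselves, and 34 (50%) were called lower and 10 higher in LATS1/2-Sox9-KO-labelled libraries than in control, beside 19.6% and 17.8% of all genes tested. Their median log2 fold change was -1.30. Within 5000 bases of a silenced gene lay 12 of these neighbours, 7 of them lower and 1 higher.

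Some of the neighbours were expressed far above the silenced gene. LOC102637012 (49, 41 and 69 counts in control, 0 in all 6 deletion libraries) lies on chromosome 7 between Tmem86a at 2576 bases and Ptpn5 at 3108 bases. Ptpn5, a tyrosine phosphatase gene of neurons on the same strand, averaged 10218 normalised counts in control, 11.1 in LATS1/2-KO-labelled libraries and 0.309 in those labelled LATS1/2-Sox9-KO, and Tmem86a averaged 11653, 521 and 214. AC124169.1 lies within Syt7 on the same strand without sharing an exon base, and Syt7, a calcium sensor of exocytosis, went from 4556, 5565 and 6222 normalised counts in control to 96.3, 21.2 and 108 and to 18.6, 14.9 and 25.5. Both Ptpn5 and Tmem86a were called lower in LATS1/2-Sox9-KO-labelled libraries, and Syt7 was below every control in all 6 deletion libraries. Reads of a neighbour's transcript that ran into the silenced gene would be part of its counts and could not be set apart.

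5930412G12Rik starts 151 bases from Fzd10, a Wnt receptor gene on the other strand, which averaged 741, 13.9 and 2.74 normalised counts in the 3 groups. Ccdc155 lies 2627 bases from Dkkl1 (11446, 699 and 211) and C2cd4c 4026 bases from Shc2 (1510, 77.0 and 29.4). 4921518K17Rik, with 57, 72 and 94 control counts and 0 in all 6 deletion libraries, lies 39059 bases from Foxa1, the pioneer factor of hormone-sensing luminal cells, which averaged 21672, 1839 and 1582. 4921518K17Rik is antisense to Ttc6 and shares 64 of its 3390 exon bases with it, and Ttc6 had 7094, 7779 and 8812 normalised counts in control, 774, 302 and 538 in LATS1/2-KO-labelled libraries and 448, 244 and 323 in those labelled LATS1/2-Sox9-KO. With the strand setting uncertain, reads of Ttc6 among those of 4921518K17Rik could not be set apart. In contrast, the cathepsin pair had Ctla2a, an inhibitor of cathepsins, as its nearest tested gene on one side, and Ctla2a was called higher in LATS1/2-Sox9-KO-labelled libraries than in control, with means of 25.4, 1375 and 2134 in the 3 groups. Gm15894 lies antisense to Il34 with 22 shared exon bases, and Il34 went from 38.3, 19.3 and 46.0 normalised counts in control to between 821 and 1641 in the deletion libraries. Neither neighbour was silenced with the gene beside it.

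**Figure D4:**
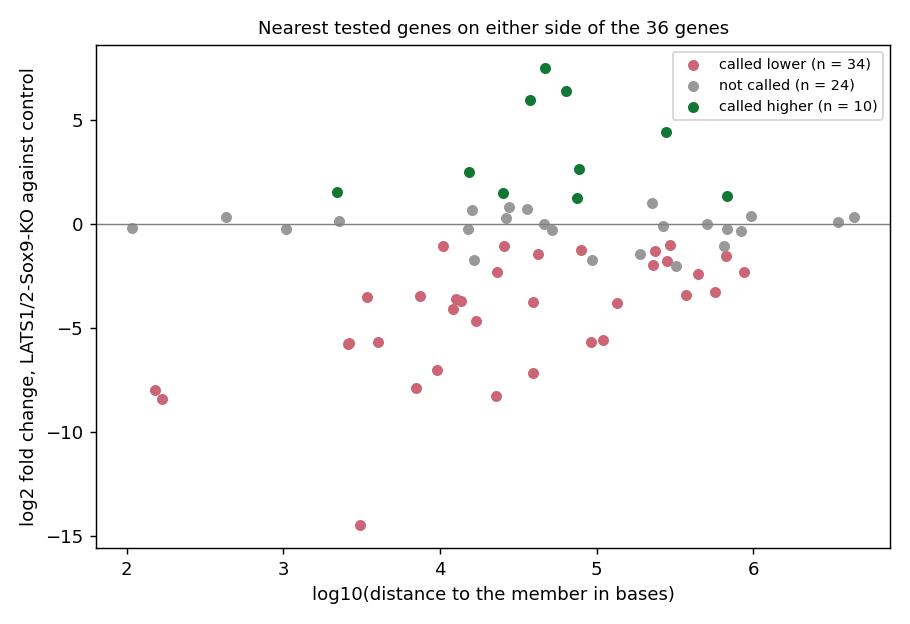
Distance in bases of each of the 68 nearest tested genes to the silenced gene (horizontal, log10) against its log2 fold change between LATS1/2-Sox9-KO-labelled libraries and control (vertical), coloured by edgeR call. The 34 genes called lower lie from 151 to 869732 bases away, and the lowest point is Ptpn5 at -14.50 and 3108 bases.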

How the data were processed

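RNA of sorted EYFP+ mammary cells was sequenced in 9 libraries. The authors aligned reads to mm10 with STAR 2.6.0c, used featureCounts (Subread 1.6.2) to count proper pairs with a unique alignment on Ensembl genes, and deposited raw counts per library for genes outside the mitochondrial genome. The submitters' processing notes also name FastQC 0.11.7. The study's methods mention same-strand counting but name a kit that, in its standard form, does not mark strand, so the strand setting is uncertain. From the counts, edgeR 4.0.16 in R 4.3.3 (filterByExpr, TMM, quasi-likelihood fit of 3 group means over all 9 libraries) gave fold changes, with Benjamini-Hochberg adjustment of p-values over 19357 genes. Calls needed a log2 fold change beyond 1 in size and an adjusted p no higher than 0.05. With 3 libraries against 3, an exact permutation test can give no two-sided p under 0.1. Counts at 0 in a group were set to a floor of 3 counts per library for fold bounds, and counting intervals are exact Poisson ratios at 95%.

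The 36 genes and all lists were chosen with earlier results of these data known. Named with values were the 12 genes with the highest control mean, the 10 with the highest control minimum besides, up to 10 with more than 3 counts in a library labelled LATS1/2-Sox9-KO, those in a luminal, secretory or hormone list, those of known function, and the 3 genes on each side of a threshold. By the rule, predicted genes (Gm numbers and Rik clones) were named only for LATS1/2-Sox9-KO counts or nearness to a threshold, and values of others were added after they were seen. Lists of T and NK cells, B cells, macrophages, granulocytes, fibroblasts, adipocytes, skeletal muscle, salivary gland and steroid receptors were also read. Positions, classes and exon lengths are those of GENCODE M21 on GRCm38, and 55104 of the 55450 gene IDs had a symbol there. Sequences and motif counts are from RefSeq, GRCm38.p6. Replicates came from numbered labels, and nothing says that they were separate mice, so p-values measure the spread between these libraries, which may be technical. No 2 libraries of a group agreed within sampling noise (chi-square per gene 17.9 to 142). The alternatives were other limits in the rule, DESeq2 1.42.0, RLE or upper-quartile factors, no filter or a mean count of at least 10, a replicate block, a fit of only the 2 groups compared, glmTreat against a 2-fold change, and each library left out. The values of 1 of the 36 genes are not reported here, although it is part of the counts over all 36. The fits were tested on simulated counts for LATS1/2-Sox9-KO against control. Of changed genes that passed the filter, 65.7% were recovered at a log2 change of 2 in size and 90.6% at 4. Of 18659 unchanged genes, 4 were called.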

Additional observations from a re-analysis of the deposited data

How the results depend on the processing

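The number of genes follows the limits of the rule. With a control minimum of 20, 50 or 100 counts there were 60, 21 and 9 genes, of which 31, 12 and 6 had at most 3 counts in every library labelled LATS1/2-Sox9-KO. With a LATS1/2-KO maximum of 0, 1, 5 or 10 counts there were 18, 24, 64 and 127, of which 14, 16, 34 and 50 (77.8%, 66.7%, 53.1% and 39.4%) had at most 3 counts in every library labelled LATS1/2-Sox9-KO, so that share differed with the limit. With up to 10 counts allowed in that group, 33 of the 36 were retained. Each control or LATS1/2-KO library left out in turn gave 42 to 71 genes, the most without LATS1/2-KO replicate 1 (71) and replicate 2 (60), and 24 to 40 of them had at most 3 counts in LATS1/2-Sox9-KO-labelled libraries, with 32 of 52 without control replicate 1. Leaving out a library labelled LATS1/2-Sox9-KO keeps the 36 genes, of which 23 to 25 then met that limit. With all 36 genes kept, the alternative fits called 35 or 36 of them lower in LATS1/2-Sox9-KO-labelled libraries than in control. Between the deletion groups, 2 genes were called higher, 3 with DESeq2 or with no filter on low counts, but none in a fit of the 2 compared groups alone, in which 1 gene of the 36 passed the filter, none with glmTreat and 1 with the replicate block, and 0 to 2 with a library left out.

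Over all genes, glmTreat called 2468 lower and 2240 higher in LATS1/2-Sox9-KO-labelled libraries than in control, 2043 lower and 1962 higher in those labelled LATS1/2-KO, and 14 lower and 18 higher between the deletion groups, where DESeq2 called 750 and 509. With a library left out, that last comparison gave 78 to 582 lower and 121 to 497 higher. The cause of these shifts was not tested. Of 612 alternatives for single genes against control, 608 kept direction and call, and none reversed. The other 4 lost the call: F630040K05Rik with glmTreat (adjusted p = 0.0879) and without control or LATS1/2-Sox9-KO replicate 2, and Kndc1 with DESeq2 (adjusted p = 0.0513). Same-numbered libraries did not deviate together (r from -0.07 to 0.17), so the numbers were not taken to pair them, and the replicate block changed no other call of the 36. Control counts of 33 to 987 and a floor of 3 limit what can be seen, and genes with fewer than 30 counts in a control library could not meet the rule.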
